A study of Mus musculus with 2 samples.

Results

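In mouse embryonic stem (ES) cells, 2 windows of chromosome 7 were set apart by a high ratio of reads from the library labelled H2ABbd to reads from the library labelled 5mC. The proximal window is chr7:23000001-24000000 and the distal window is chr7:33000001-34000000, both on mm9 (1-based). They comprise 2000 bins of 1 kb, out of 2638998 bins on chromosomes 1 to 19 and X. The windows were chosen by their H2ABbd to 5mC ratio and by their sparse mapping, so both properties are described here without a test. Each window was set against the 2 Mb on each of its sides, called its left flank (lower coordinates) and its right flank.

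The library labelled H2ABbd came from ChIP-seq with a home-made rabbit antibody on sonicated chromatin that had been crosslinked with formaldehyde. The library labelled 5mC came from MeDIP, in which sonicated and denatured DNA was precipitated with the 33D3 antibody. Both were made from ES cells grown with LIF and without feeder cells, and there was 1 library per antibody. The deposited files carry the antibody names the other way round, and the groups follow the sample labels, so each is called here the library labelled H2ABbd or 5mC. The 2 libraries held 1396198 distinct positions among 3501460 reads (labelled H2ABbd) and 8051714 among 9260168 reads (labelled 5mC). Without replicate libraries no difference could be tested, and the intervals given (95%) cover counting error only.

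H2A.Bbd is a short histone H2A variant that lacks part of the acidic patch of H2A and forms less stable nucleosomes that wrap less DNA. In MeDIP the antibody recovers fragments by their methylated cytosines, so that recovery depends on CpG density as well as on methylation. In recently duplicated gene families, near-identical copies give short reads several possible places, and the yield of aligned reads then depends on the aligner's settings. Mouse chromosome 7 is known for such families, among them type 1 vomeronasal receptors (Vmn1r), which detect pheromones. Which genes and repeats lie in either window, and whether the windows are in fact duplicated, was not analysed here because no mm9 sequence or annotation was used.

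Both windows held few reads of the library labelled 5mC, while their H2ABbd counts were ordinary among all autosomal megabases. Among the 22 megabases with 500 to 1346 5mC reads, the median H2ABbd count was 257, below that of both windows. The proximal window had 462 distinct H2ABbd reads (421 to 506) and 1346 distinct 5mC reads (1275 to 1420). The distal window had 384 distinct H2ABbd reads (347 to 424) and 1135 distinct 5mC reads (1070 to 1203). Levels are given per bin of a region, empty ones included, relative to the autosomal mean, which was taken over 1 kb bins hit by at least 1 of the libraries. The H2ABbd level was 0.743 in the proximal and 0.617 in the distal window. The 5mC level was 0.379 in the proximal and 0.319 in the distal window. H2ABbd was thus nearer to its autosomal mean than 5mC in both windows, as their selection on the ratio requires.

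Scaled to the library totals of distinct reads, the H2ABbd to 5mC ratio was 1.98 (1.78 to 2.20) in the proximal window and 1.47 (1.41 to 1.53) in its flanks. It was 1.95 (1.73 to 2.19) in the distal window and 1.25 (1.21 to 1.30) in its flanks. The ratio of each window over its flanks was 1.35 (1.20 to 1.51) for the proximal and 1.56 (1.38 to 1.76) for the distal window. Neither interval reached 1, but the windows were selected for a high ratio, so nothing is read from this. In density, the proximal window had 0.672 times as many H2ABbd reads per kb as its flanks, and 0.499 times as many 5mC reads. The distal window had 0.467 times as many H2ABbd reads per kb as its flanks and 0.300 times as many 5mC reads. Both libraries were therefore thinner in the windows than in the 2 Mb flanks when these were pooled. Against its left flank alone the proximal window was the denser, 1.17 times for H2ABbd (1.04 to 1.31) and 1.10 times for 5mC (1.03 to 1.18). Against flanks of 1 Mb the proximal H2ABbd density was 1.12 times as high, and the distal one 0.884 times.

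The flanks on either side of a window differed from each other. The proximal window was close to its left flank, where the ratio was 1.87 and the levels were 0.636 for H2ABbd and 0.344 for 5mC. Set against that flank alone, its ratio was 1.06 times as high (0.927 to 1.21), an interval that includes 1. Against the right flank alone, which had a ratio of 1.36, the value was 1.46 (1.30 to 1.64). The distal window had a higher ratio than either flank, by 1.35 times against the left (1.19 to 1.54) and by 1.81 times against the right (1.59 to 2.06).

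Megabase by megabase, the 5mC count changed more than the H2ABbd count at the right border of both windows and at the left border of the distal window, but not at the left border of the proximal window. The library labelled H2ABbd had 462 distinct reads in the proximal window, 378 and 413 in the 2 Mb to its left, and 412 and 1547 in the 2 Mb to its right. The library labelled 5mC had 1346 in the proximal window, 1200 and 1245 to its left, and 2515 and 5822 to its right. The H2ABbd count of the proximal window was thus no lower than those of 3 neighbouring megabases, and on the right the 5mC count went up 1 Mb earlier than the H2ABbd count. The library labelled H2ABbd had 384 distinct reads in the distal window, 1438 and 380 to its left and 489 and 979 to its right. The library labelled 5mC had 1135 in the distal window, 5544 and 1733 to its left and 2775 and 5078 to its right. The megabases touching the distal window had more 5mC reads than it on both sides, whereas the megabase touching the proximal window on the left had fewer.

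**Figure D1:**
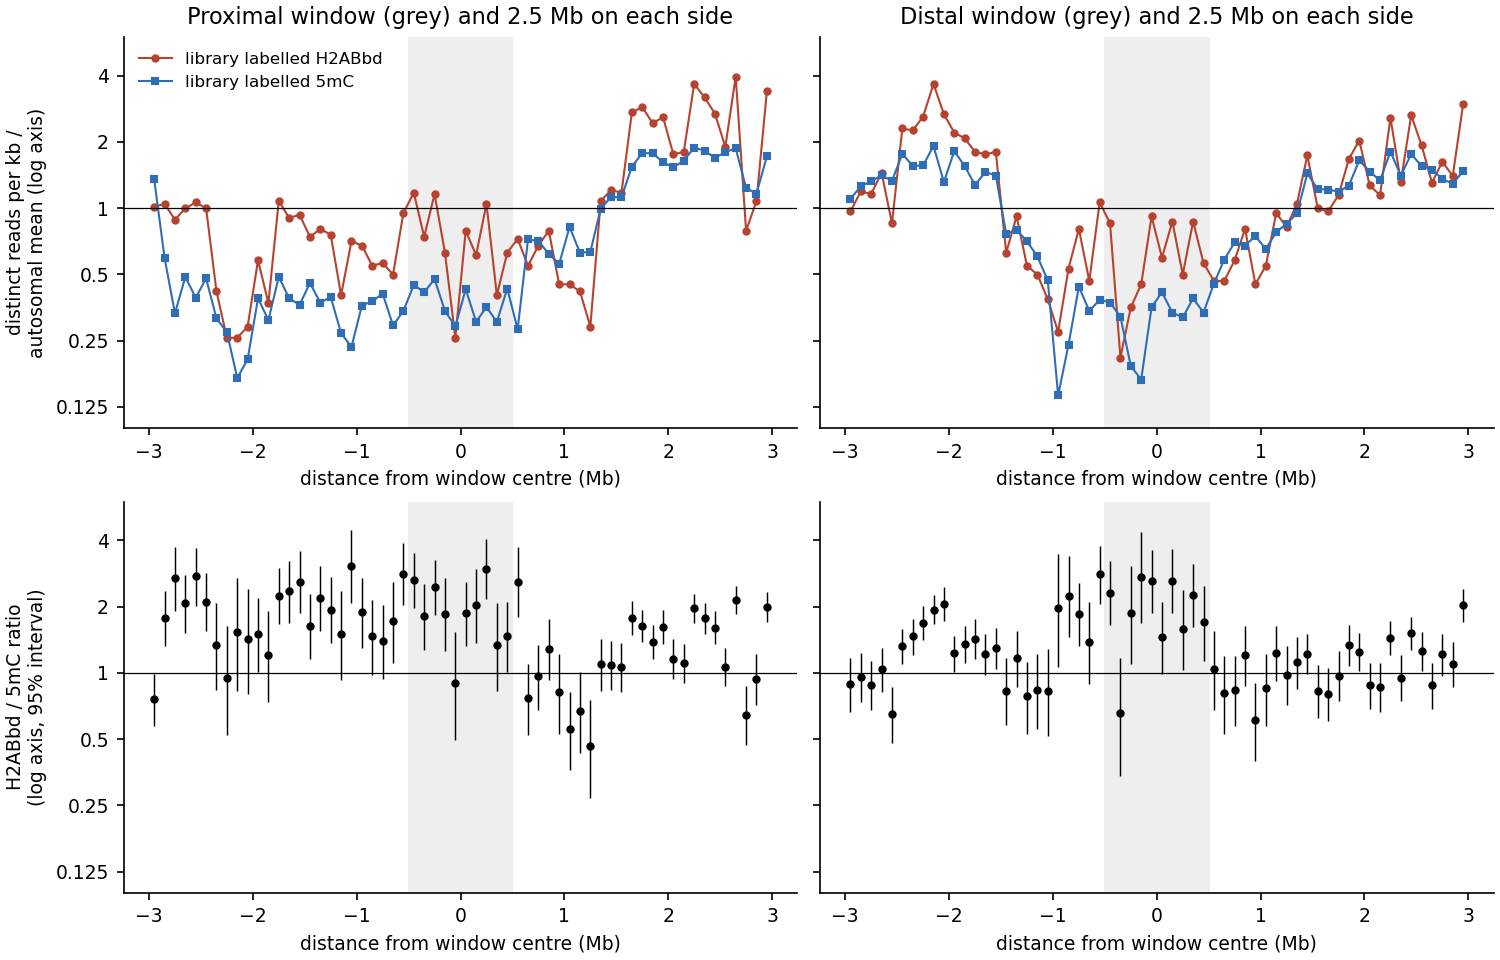
Upper panels: distinct reads per kb over the autosomal mean in 100 kb pieces (log axis) of the library labelled H2ABbd (circles) and the library labelled 5mC (squares), against distance from the window centre. Lower panels: the H2ABbd to 5mC ratio of the same pieces (log axis) with exact 95% counting intervals; grey marks each window. The 5mC line lies below 0.5 throughout both windows and for some distance outside them, mostly on the left, while the H2ABbd line lies above it in most pieces of the windows.

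At the left borders the ratio inside and outside was close. In the 0.5 Mb inside the left border of the proximal window the ratio was 2.03 (246 H2ABbd and 699 5mC reads), against 1.83 (201 and 632 reads) in the 0.5 Mb outside it. At the left border of the distal window it was 2.00 inside (173 H2ABbd and 499 5mC reads) and 2.05 outside (195 and 548 reads). On the right the ratio was lower just outside. It was 1.93 inside the right border of the proximal window (216 and 647 reads) and 1.11 outside (198 and 1025 reads), and in the distal window 1.91 inside (211 and 636 reads) and 0.885 outside (172 and 1121 reads). At both right borders the H2ABbd counts inside and outside were close, and most of the step was in 5mC.

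The thin stretch was followed beyond the windows by taking every adjoining 100 kb piece with a 5mC level under 0.5 of the autosomal mean, a limit set after the values were seen. Around the proximal window it ran over 3.4 Mb, chr7:20700001-24100000, with 1481 H2ABbd and 4321 5mC reads and a ratio of 1.98 (1.86 to 2.10). Its 2.4 Mb outside the window had a ratio of 1.98 too (1.84 to 2.12). Around the distal window the stretch ran over 1.7 Mb, chr7:32400001-34100000, with a ratio of 1.81 (1.65 to 1.98). The 0.7 Mb of it outside the window had a ratio of 1.63 (1.41 to 1.88). In the 0.7 Mb to the right of each stretch the ratio was 0.780 (0.676 to 0.897) beside the proximal and 0.936 (0.823 to 1.06) beside the distal stretch. The 100 kb piece to the left of each stretch had a ratio of 1.78 beside the proximal and 0.835 beside the distal stretch. The pieces were picked by their 5mC level, the divisor of the ratio, which favours a high ratio inside a stretch and a lower one beyond it. Nothing is therefore read from the ratios of the stretches. Both windows lay within longer stretches of low 5mC level.

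Whether few bins or the whole window carried the ratio was examined first in 100 kb pieces. Of the proximal window, 7 of 10 pieces had a ratio of 1.5 or more, against 21 of 40 in its flanks. For the distal window the count was 8 of 10, against 8 of 40 in its flanks. Over the autosomes 8.85% of pieces did so (2123 of 23999), but since the windows were selected on this ratio nothing is read from that difference. The pieces of the proximal window ranged between 0.896 and 2.97 with a median of 1.86, and those of the distal window between 0.658 and 2.74 with a median of 2.06. Leaving out any 1 piece left the ratio between 1.88 and 2.07 in the proximal and between 1.87 and 2.10 in the distal window, so no single 100 kb piece carried it.

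The highest pieces of the proximal window were chr7:23700001-23800000, with a ratio of 2.97 (65 H2ABbd and 126 5mC reads), and chr7:23000001-23100000, with 2.65 (73 and 159 reads). Its lowest were chr7:23400001-23500000, with 0.896 (16 and 103 reads), and chr7:23800001-23900000, with 1.33 (25 and 108 reads). The highest of the distal window were chr7:33300001-33400000, with 2.74 (28 and 59 reads), and chr7:33600001-33700000, with 2.62 (54 and 119 reads). Its lowest were chr7:33100001-33200000, with 0.658 (13 and 114 reads), and chr7:33500001-33600000, with 1.45 (37 and 147 reads). Pieces of the proximal window held 16 to 73 H2ABbd reads and 103 to 169 5mC reads.

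At 10 kb the picture became patchy. In the proximal window 87 of 100 pieces of 10 kb held an H2ABbd read, and 69 of 100 had a ratio above 1, with a median of 1.44. In its flanks 228 of 392 pieces (58.2%) had a ratio above 1, with a median of 1.15. Of the distal window, 78 of 100 pieces held an H2ABbd read, and 53 of the 97 with a 5mC read had a ratio above 1 (54.6%), with a median of 1.24. In its flanks 210 of 400 did so (52.5%), with a median of 1.04. On this scale the distal window resembled its flanks in how many pieces lay above 1, although its summed ratio was higher.

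A small part of the bins held a large part of the H2ABbd reads, in the windows and in the flanks. The proximal window had 732 bins with no H2ABbd read, 185 with 1, 39 with 2, 28 with 3 to 4 and 16 with 5 or more. Those 16 bins held 22.9% of its H2ABbd reads. There were 802 distal bins with none, 134 with 1, 29 with 2, 17 with 3 to 4 and 18 with 5 or more. Those 18 bins held 35.4% of the H2ABbd reads of the distal window. Bins with 5 or more held 30.8% of these reads in the flanks of the proximal and 30.7% in those of the distal window. They made up 2.98% and 3.48% of the flank bins. In the left flank of the proximal window 1.05% of bins held 21.7%. The 10 densest bins held 16.5% of the H2ABbd reads and 5.87% of the 5mC reads of the proximal window when each library was ranked on its own. Those of the distal window held 24.0% of the H2ABbd reads and 6.26% of the 5mC reads. The 5mC reads were thus spread more evenly, and the distal window was more concentrated than the proximal one.

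Removing bins ranked by their own H2ABbd reads lowers any ratio, so bins were also ranked on one strand and counted on the other. With the densest 10% of bins left out in this way, the ratio of the remaining bins was 1.57 in the proximal window and 1.18 in its flanks. It was 1.35 in the distal window and 1.01 in its flanks. With only the densest 1% left out, it was 1.87 in the proximal window against 1.38 in its flanks, and 1.75 in the distal window against 1.18 in its flanks. The removed 1% had a ratio of 6.96 in the proximal and 12.6 in the distal window on the strand not used for ranking. The same value was 5.34 in the flanks of the proximal and 4.43 in those of the distal window, and 10.2 in the proximal left flank. Dense bins therefore added to the ratio of windows and flanks, more in the distal than in the proximal window. The bins left after their removal still had a higher ratio than the pooled flanks treated alike. Against its left flank alone the proximal gap was smaller, at 1.57 against 1.49 with 10% left out. Ranked and counted on the same reads, the remaining 90% had a ratio of 0.871 in the proximal window (flanks 0.724) and 0.627 in the distal window, which was below its flanks (0.667).

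The bins densest in H2ABbd also held more 5mC reads than other bins. Proximal bins with 5 or more H2ABbd reads averaged 2.88 5mC reads, against 1.12 in those with none, and distal bins averaged 3.67 against 0.948. In the proximal window the densest was chr7:23337001-23338000, with 12 H2ABbd reads (18.8 times the chromosome mean) and 1 5mC read. It was followed by chr7:23235001-23236000 (11 H2ABbd and 5 5mC reads) and chr7:23558001-23559000 (9 and 10 reads). The densest of the distal window was chr7:33684001-33685000, with 15 H2ABbd reads (23.4 times the mean) and 3 5mC reads, followed by chr7:33457001-33458000 (13 and 4 reads) and chr7:33540001-33541000 (13 and 6 reads). Only chr7:23558001-23559000 was among the densest 3 of its window in both libraries. The other densest 5mC bins were chr7:23948001-23949000 (4 H2ABbd and 10 5mC reads) and chr7:23414001-23415000 (1 and 8 reads) in the proximal window. Those of the distal window were chr7:33820001-33821000 (5 and 10 reads), chr7:33598001-33599000 (7 and 9 reads) and chr7:33055001-33056000 (2 and 8 reads).

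Bins were called enriched when their count passed an adjusted Poisson tail of 0.01 and 4 times the chromosome mean, a filter within 1 library. Of the 728 proximal bins that held any read, 10 passed for H2ABbd (1.37%, 0.661 to 2.51), against 73 of 3210 in its flanks (2.27%) and 1.27% in the left flank alone. Of 642 such distal bins 14 passed (2.18%, 1.20 to 3.63), against 97 of 3630 in its flanks (2.67%). Over all bins of the genome that held any read, 1.18% passed, so the share of called bins was near that background in the proximal window, and the interval of the distal window began just above it. For 5mC no bin passed in either window, against 0.508% over all bins. By 3 counts that allows up to 0.412% of the proximal and 0.467% of the distal bins. By the exact interval it allows up to 0.505% and 0.573%, the first just under and the second above 0.508%. A called 5mC bin needed 15 distinct reads, and no bin of the windows held more than 10. The windows were chosen for sparse mapping, so no shortfall is read from this. The flanks had 18 called 5mC bins (0.561%) around the proximal window, with 0 of 1343 in its left flank, and 15 (0.413%) around the distal window.

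Empty bins were common in the windows. In the proximal window 73.2% of bins had no H2ABbd read, against 67.1% in its flanks, and 32.0% had no 5mC read, against 23.3% in its flanks. Of the distal bins 80.2% had no H2ABbd read, against 61.0% in its flanks, and 41.2% had no 5mC read, against 11.05% in its flanks. Bins empty in both libraries made up 27.2% of the proximal window, against 19.75% of its flanks, and 35.8% of the distal window, against 9.25% of its flanks. The left flank of the proximal window had more empty bins than the window, with 77.0% (H2ABbd), 38.2% (5mC) and 32.85% (both). The megabase touching the distal window on the left was close to it for H2ABbd, with 78.5% (H2ABbd), 28.2% (5mC) and 24.6% (both). On the right the touching megabase had 72.7%, 13.0% and 10.7%. An even spread of the same reads would leave 63.0% (H2ABbd) and 26.0% (5mC) of the proximal bins empty, and 68.1% and 32.1% of the distal bins. More bins were empty than that in the windows, and the same was true of the flanks. The gap was wider in the pooled flanks, except for 5mC and the distal window, where it was about as wide in both. An even spread would leave 50.3% and 6.75% of bins empty in the pooled flanks of the proximal window, and 44.0% and 2.28% in those of the distal window. Pooling flanks of unlike density widens this gap. In the proximal left flank alone an even spread would leave 67.3% empty of H2ABbd, a gap slightly narrower than in the window. In the distal right flank alone 7.35% had no 5mC read, against 1.97% with an even spread, also a narrower gap. The other single-flank gaps were wider than those of the windows.

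Bins empty in both libraries were scattered rather than gathered in 1 gap. The longest run of bins empty in both libraries was 6 kb in the proximal window (chr7:23440001-23446000) and 9 kb in the distal window (chr7:33243001-33252000). The left flank of the proximal window held a run of 54 kb (chr7:21364001-21418000). For H2ABbd alone the longest runs were 26 kb in the proximal and 38 kb in the distal window, and for 5mC alone 6 kb and 33 kb. Among bins that held any read, the proximal window had an H2ABbd level of 1.02 times the autosomal mean, against 1.38 in its flanks, and a 5mC level of 0.520, against 0.945. The distal window had an H2ABbd level of 0.962, against 1.46 in its flanks, and a 5mC level of 0.498, against 1.17. Without the empty bins, the H2ABbd level of the windows was thus that of an average autosomal bin and the 5mC level was well under it.

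**Figure D2:**
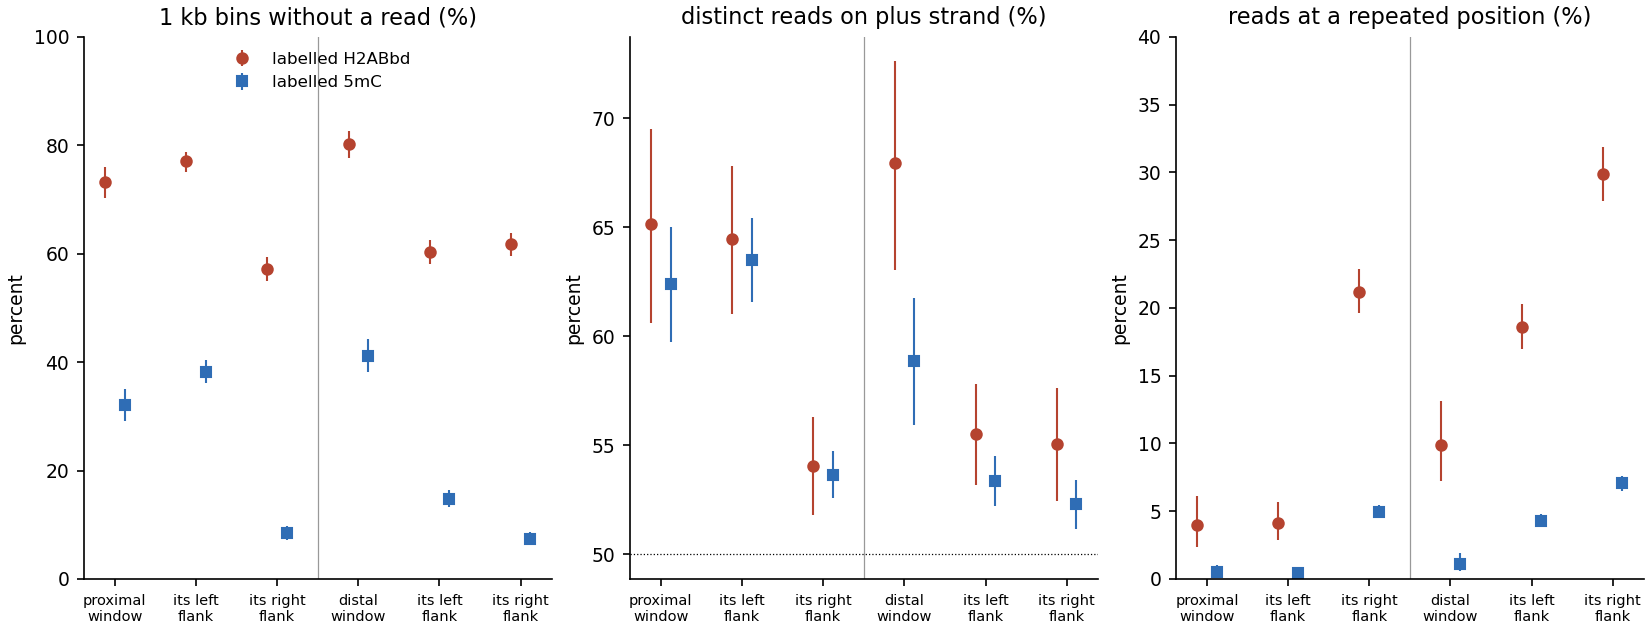
Percent of 1 kb bins without a read, of distinct reads on the plus strand and of reads beyond the first at a position, in each window and each of its flanks, for both libraries, with exact 95% binomial intervals. The proximal window lies nearer to its left than to its right flank in all 3 panels, and the distal window lies apart from both of its flanks.

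Both libraries had more plus than minus strand reads in the windows. In the proximal window 65.2% of distinct H2ABbd reads were on the plus strand (60.6 to 69.5), against 57.1% in its flanks, and 62.4% of 5mC reads (59.8 to 65.0), against 55.9%. In the distal window it was 68.0% of H2ABbd reads (63.0 to 72.6), against 55.3% in its flanks, and 58.9% of 5mC reads (55.9 to 61.7), against 52.8%. Over the genome the plus share was 54.6% for H2ABbd and 52.8% for 5mC. The plus share was above these genome values in 10 of 10 pieces of 100 kb of the proximal window for H2ABbd and for 5mC, and in 9 of 10 distal pieces for each. The left flank of the proximal window had 16 (H2ABbd) and 19 (5mC) of 20 such pieces and its right flank 11 and 13, while the flanks of the distal window had 8 and 13 on the left and 9 and 12 on the right. The distal exception was chr7:33100001-33200000, with 53.8% (H2ABbd) and 43.9% (5mC). The left flank of the proximal window, with 64.5% (H2ABbd) and 63.5% (5mC), had the same excess. The megabases touching the distal window had part of it, with 60.5% (H2ABbd) and 57.7% (5mC) on the left and 59.7% and 55.1% on the right.

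The raised ratio was present on both strands. Scaled to the strand totals, the proximal window had a ratio of 2.00 on the plus and 1.91 on the minus strand, against 1.45 and 1.49 in its flanks. The distal window had 2.18 on the plus strand (1.88 to 2.52) and 1.58 on the minus strand (1.28 to 1.93), against 1.27 and 1.23 in its flanks. In the distal window the strands differed more, although their intervals overlapped.

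Repeated positions were rare in the windows and in the left flank of the proximal window, where they made up 4.12% of H2ABbd and 0.407% of 5mC reads. In the proximal window 3.95% of H2ABbd reads lay at a position already counted, against 16.9% in its flanks, and 0.517% of 5mC reads, against 3.96%. In the distal window it was 9.86% of H2ABbd reads, against 24.0% in its flanks, and 1.13% of 5mC reads, against 5.74%. The megabase touching the distal window on the left had 10.8% (H2ABbd) and 2.31% (5mC), and the one on the right 14.7% and 3.55%. In the whole libraries the share was 60.1% for H2ABbd and 13.05% for 5mC. No position in the windows held more than 5 reads of the library labelled H2ABbd or 2 of the library labelled 5mC. The windows thus held no pile-up of identical reads, and 0 of their bins were among the 0.1% most covered of either library.

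When all reads were kept, the comparison with the flanks held and the ratio itself did not. The counts became 481 H2ABbd and 1353 5mC reads in the proximal window, and 426 and 1148 in the distal window. Scaled to all reads the ratio was 0.940 in the proximal window, against 0.780 in its flanks, and 0.981 in the distal window, against 0.713 in its flanks. In bins at 40 or more times the chromosome mean of H2ABbd lay 54.3% of all H2ABbd reads and 10.3% of all 5mC reads. Scaled to all reads outside those bins, the ratio was 1.85 in the proximal and 1.93 in the distal window.

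The reads of each window did not repeat the positions of the other library. None of the 462 proximal and 384 distal H2ABbd positions was also a 5mC position, which allows up to 0.649% and 0.781%. The flanks had 14 positions (0.509%) and 46 positions (1.40%). Of the 46, 38 lay in the right flank (2.59%) and 8 in the left (0.440%), and the left flank of the proximal window had 2 (0.253%). An absence particular to the windows is therefore not shown. Reads on opposite strands that face each other at the length of a fragment are the usual mark of an immunoprecipitated library. Such pairs, 50 to 250 bp apart, were counted against pairs 1000 to 2000 bp apart, expressed per 200 bp. There were 67 H2ABbd pairs in the proximal window against 15.8 (4.24 times), with 3.54 times in its flanks, and 141 5mC pairs against 87.4 (1.61 times), with 1.45 times in its flanks. There were 73 H2ABbd pairs in the distal window against 11.2 (6.52 times), with 3.38 times in its flanks, while its 5mC excess was 1.62 times, with 1.38 times in its flanks. Near pairs were thus in excess in both windows, more so for H2ABbd than for 5mC. The left flank of the proximal window had the same feature, at 9.93 times for H2ABbd and 1.51 times for 5mC. Any clustering of reads at distances under 1000 bp would also raise these values, so no enrichment is read from them.

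Because the windows differ from the flanks in 5mC, bins with the same 5mC count were also compared, a step added after the data were seen. In bins with no 5mC read, the proximal window had 0.184 H2ABbd reads per bin, against 0.186 in its flanks, and in bins with 3 to 5 5mC reads 0.889, against 0.859. Distal bins had 0.163 and 0.977 in the same classes, against 0.251 and 0.808 in its flanks. The H2ABbd count went up with the 5mC count in windows and flanks alike. Other classes differed more. In bins with 1 5mC read the proximal window had 0.455, against 0.328 in its flanks, and in bins with 6 or more the distal window had 3.4, against 1.57 in its flanks. The number of bins per class differed too, with 1.5% of the bins of each window at 6 or more 5mC reads, against 15.0% and 24.7% in the flanks of the proximal and distal window.

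Given the 5mC count of each bin, the flanks' own levels would give the proximal window 406 H2ABbd reads, and 462 were seen, 1.14 times as many (1.04 to 1.25). For the distal window the flanks' levels would give 400 reads, and 384 were seen, 0.959 times as many (0.866 to 1.06). By these levels the distal window was not above its flanks, and the proximal window was little above its pooled flanks. In denser flanks, a bin with few 5mC reads can be a dense bin that drew few, which raises these levels. The distal flanks had 3.78 5mC reads per kb and the distal window 1.135. The comparison also uses the counts that chose the windows, so nothing is read from it. With the levels of 1 flank alone the proximal value was 1.08 (0.987 to 1.19) from the left and 1.10 (1.005 to 1.21) from the right. The interval from the left flank includes 1. These intervals cover the counting error of the window only. Against autosomal bins with at least 1 5mC read and no pile-up, 403 H2ABbd reads were seen in the proximal window where 243 would follow (1.66 times, 1.501 to 1.83). In the distal window 317 were seen where 206 would follow (1.54 times, 1.37 to 1.72). Since the windows were selected on their ratio over the genome, nothing is read from these 2 values.

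**Figure D3:**
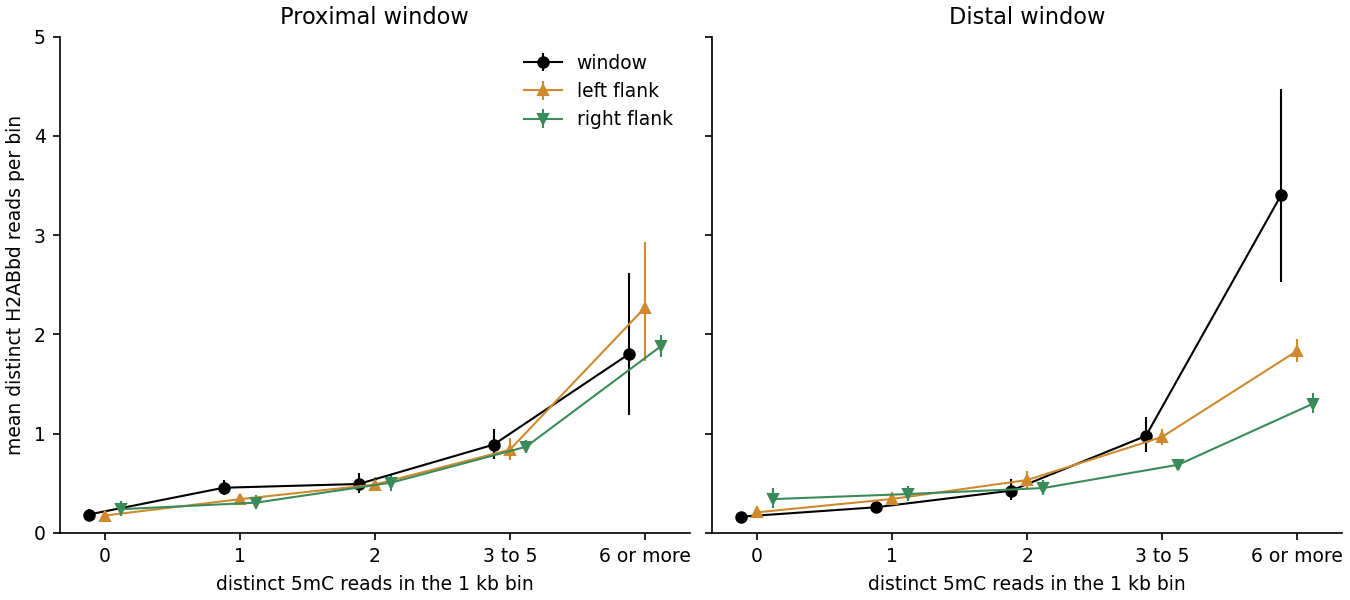
Mean distinct H2ABbd reads per 1 kb bin in classes of bins by their distinct 5mC reads, for each window and its left and right flank, with exact 95% Poisson intervals. The points go up with the 5mC count in windows and flanks; the distal window lies below its flanks at 0 reads and, with 15 bins, above them at 6 or more.

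Among 2414 autosomal windows of 1 Mb with at least 500 5mC reads, the median ratio was 0.888. The proximal window was 17th and the distal window 20th from the highest ratio, and the megabases of the left flank of the proximal window were 34th and 23rd. If the file names rather than the labels held, the ratio would be inverted and these would be ranks from the lowest. By 5mC reads they were 22nd and 10th from the fewest, and by H2ABbd reads 1318th and 1003rd from the fewest. Among all 2414 windows both were thus ordinary in H2ABbd reads (462 and 384, with a median of 433) and extreme in 5mC reads (1346 and 1135, with a median of 2977). The 22 windows with no more than 1346 5mC reads, these 2 included, had ratios between 0.645 and 2.46 with a median of 1.32, and 7 of them were at 1.5 or more. The median H2ABbd count of the 22 was 257, below that of both windows, a difference that selection on the ratio favours. Of the 22, 5 were on chromosome 7.

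**Figure D4:**
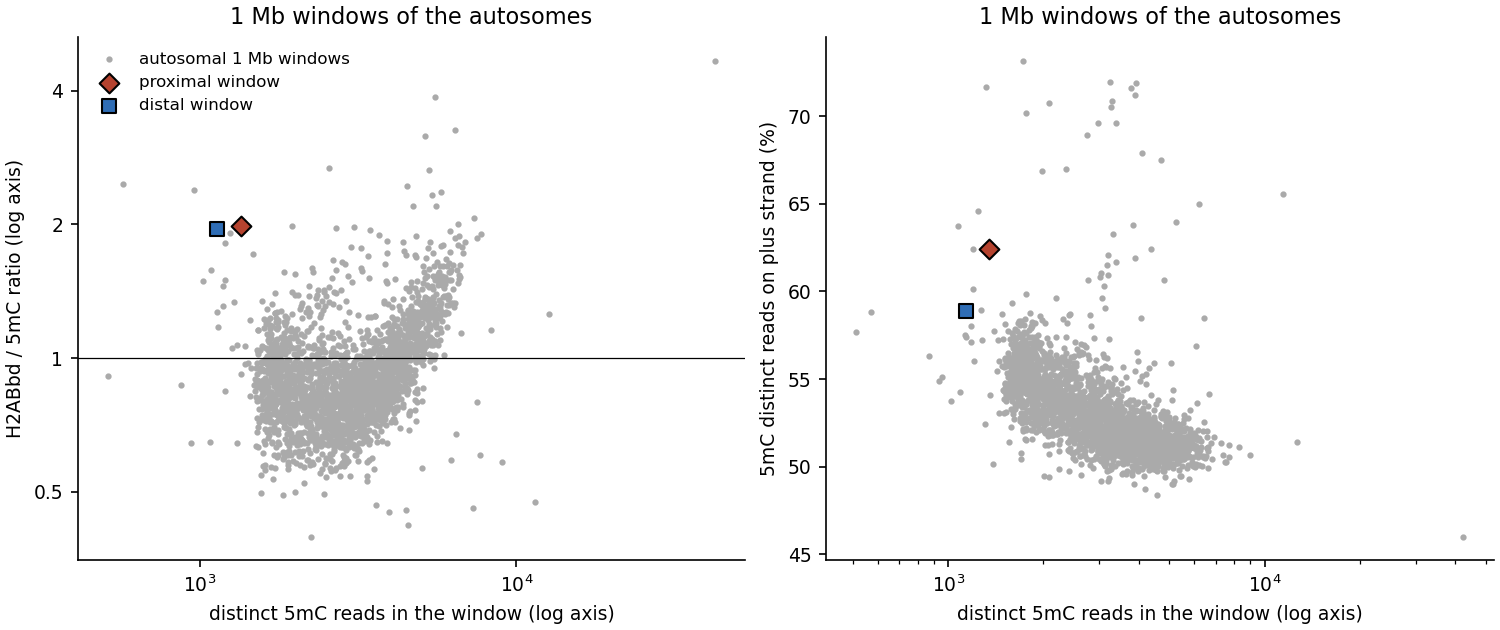
H2ABbd to 5mC ratio (left, log axis) and percent of distinct 5mC reads on the plus strand (right) of autosomal 1 Mb windows against their distinct 5mC reads (log axis). The proximal window (diamond) and the distal window (square) lie at the sparse end, at ratios of 1.98 and 1.95 and plus shares of 62.4% and 58.9%.

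Bins with equal counts, strand shares and repeated positions come from the same reads as the ratio that chose the windows, and are not independent of it. How often reads with several possible positions were kept in each library, and the part this has in the empty bins, the strand split and the ratio, was not tested.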

How the data were processed

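Each of the 2 libraries came from mouse ES cells and 1 antibody. FastQC and Bowtie were used on the mm9 build, per the submitters' processing notes. What is not given in the sources used here is their versions, options and handling of multiply placed reads. In the deposited files each line is an alignment of 42 bp with its position, strand and a score, which was always 255 and was left unused. Broken lines were left out (8 labelled H2ABbd, 1 labelled 5mC).

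Each position (chromosome, 5' end, strand) was counted once, moved 100 bp towards its 3' end and counted in 1 kb bins. Ratios were scaled to the distinct reads of each library. Intervals are exact (Clopper-Pearson, Poisson or conditional) at 95%. PCR reads are not independent molecules. Calls used Benjamini-Hochberg adjustment over bins that held any read and were checked on simulated counts. A count of 0 was read as allowing 3 counts.

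Named regions were the 2 highest and 2 lowest 100 kb pieces, the 3 densest bins per library and the longest run of bins empty in both libraries. The windows, this rule and the alternatives were chosen with earlier results of these data known. Python 3.11.15, numpy 2.4.6, scipy 1.17.1 and matplotlib 3.10.9 were used.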

Additional observations from a re-analysis of the deposited data

How the results depend on the processing

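Across 20 results and 62 alternatives, 34 values stayed within the counting interval (for called bins, within 1.5 times), 25 moved beyond it and 3 passed to the other side of 1. Some of these outcomes were fixed in advance, so the tally does not measure robustness. Stricter limits cannot change a count of 0 called 5mC bins, and larger bins or thinning must shift the share of empty bins. No paired analysis was possible because each group had 1 library, and leaving out a replicate was not possible for the same reason. With flanks of 1 Mb, the H2ABbd density over the flanks was 1.12 in the proximal window, on the other side of 1, and 0.884 in the distal window, and the 5mC density was 0.716 and 0.504. With flanks of 5 Mb, the 5mC density was 0.391 (proximal) and 0.260 (distal), and the proximal H2ABbd density was 0.591. The proximal ratio over its flanks was 1.56 with flanks of 1 Mb and 1.51 with 5 Mb. It was 1.06 against the left flank alone, and the distal one was 1.35 against the left and 1.81 against the right flank alone, 1.28 on the minus strand and 1.33 in bins with a 5mC read. Keeping all reads gave ratios of 0.940 (proximal) and 0.981 (distal), both on the other side of 1, and H2ABbd densities over the flanks of 0.581 and 0.394. Called H2ABbd bins at an adjusted 1e-05 were 3 (proximal) and 4 (distal). Called 5mC bins against the window's own mean were 2 (proximal) and 1 (distal). In 5 kb bins, the empty share was 29.5% (H2ABbd) and 1.0% (5mC) in the proximal window and 43.0% and 4.5% in the distal window. At an equal library total, reached by thinning the 5mC reads, 79.8% of proximal bins were empty of 5mC, against 66.8% in the flanks, and 82.4% of distal bins, against 56.8%, at 229 and 208 reads in the windows, fewer than the 462 and 384 of H2ABbd.
The flank alternatives that use one side, the scaling without pile-up bins and the comparison at equal 5mC counts were chosen after seeing the data. Depth limited the single bin: a called bin needed 6 distinct reads of H2ABbd or 15 of 5mC, and most bins of the windows had 0 or 1 H2ABbd read. No input library was used here, so copy number and mappability cannot be told apart from enrichment in either library.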

Other observations

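Over the autosomes, the plus strand share went with the 5mC read count of a 1 Mb window. Windows were put into 10 classes by 5mC reads, and the 242 windows of the sparsest class, with 513 to 1734 reads, had a median plus share of 62.3% for H2ABbd and 55.4% for 5mC. In the densest class the medians were 52.1% and 51.2%. The plus shares of the proximal window (65.2% and 62.4%) and of the distal window (68.0% and 58.9%) were above these medians. The 10th to 90th percentile of the sparsest class was 56.9% to 67.9% for H2ABbd, which holds the proximal value and ends just under the distal one, and 53.5% to 57.7% for 5mC, which ends below both. The median ratio of the sparsest class was 0.889 (10th to 90th percentile 0.684 to 1.21), and 5 of its 242 windows had a ratio of 1.9 or more, the proximal and distal windows among them.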
